A study of Homo sapiens with 12 samples.

Results

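The collapsin response mediator proteins (CRMPs) and the neurofilament chains were followed as 8 genes: CRMP1, DPYSL2, DPYSL3, DPYSL4 and DPYSL5 of the CRMP family, and NEFL, NEFM and NEFH of the neurofilaments. They were taken by gene symbol from the 22411 genes measured, and each was matched by 1 feature of the array. DPYSL3 and NEFL were chosen by their measured difference between TUSC3 KO and control cells, one upward and the other downward, so their knockout differences are given as description without a test. The other 6 genes belong to the same families and were not picked for a change.

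RNA of A549 cells, an established human lung adenocarcinoma line was hybridised to GeneChip Human Transcriptome Array 2.0 arrays, which read each gene through many probes along its exons. Control cells are wild-type A549, and TUSC3 KO cells are A549 in which CRISPR/Cas9 was directed at TUSC3, a subunit of the oligosaccharyltransferase that attaches N-glycans to proteins in the ER. Both received either DMSO, the solvent, or tunicamycin (TM) for 16 h at 3 ug/ml, with 3 arrays in each of the 4 groups. TM blocks the first step of N-glycan synthesis and so brings on ER stress. The TUSC3 KO cells are 1 clone grown from a sorted single cell, so an effect of the knockout and a property of that clone cannot be told apart. The labels do not say that the arrays of a group came from separate cultures, so a p-value here reflects the scatter of these arrays alone, which may be technical.

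Each value is a log2 level, and a difference of 1 on this scale is a doubling of signal. Levels are compared between groups for the same gene and not between genes. The median over all features of an array lay between 4.73 and 4.80, and a gene whose group means all lie below 4.78 is called dim here. All 8 genes were above that limit in every group, as were 15861 of the 22411 genes in at least 1 group. TUSC3 RNA, read first as a check of the labels, lay between 7.03 and 7.16 in control and between 5.50 and 5.57 in TUSC3 KO arrays under DMSO, with means of 6.94 and 5.60 under TM. No TUSC3 KO array reached a control array. RNA of an edited gene can still bind the probes, so this does not measure intact TUSC3. Of 15 markers of epithelium and lung adenocarcinoma, none was below the limit in any group, and their mean log2 level per array was 8.96 to 9.21. SFTPB, SFTPC and NKX2-1 among them had group means of only 5.24 to 5.76. The array medians over the genes tested were 5.76 to 5.85, so a level above the limit does not by itself show expression. Below the limit in every group were 5 of 9 fibroblast, 4 of 7 blood cell and 3 of 6 endothelial markers, and 5 of 21 markers of neurons and neuroendocrine cells were below it in 3 groups and 6 of 21 in TUSC3 KO cells under DMSO.

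CRMPs are cytosolic phosphoproteins that bind tubulin and actin regulators and carry the signal of semaphorin 3A to the cytoskeleton of a growing axon. They resemble dihydropyrimidinase, an enzyme of uracil breakdown, in sequence but lack its activity. DPYSL2 (CRMP2) promotes microtubule assembly until CDK5 and GSK3B phosphorylate it, DPYSL3 is CRMP4, DPYSL4 is CRMP3 and DPYSL5 is CRMP5. CRMP1 has been described as a suppressor of invasion in lung cancer cells. Neurofilaments are the intermediate filaments of axons. The light chain NEFL forms the core, the medium and heavy chains NEFM and NEFH co-assemble with it and carry the side arms, and alpha-internexin (INA) and peripherin (PRPH) can join the same filament.

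Promoter sequences are shown for DPYSL3 and DPYSL5, which both fell with TM whether TUSC3 was targeted or not, as described further on. They come from RefSeq, assembly GRCh38.p14, and run from 250 bases before to 50 bases after an annotated transcription start, 300 bases in all. The table used held 9 such windows for 4 of the 8 genes: 4 for CRMP1, 2 for DPYSL3, 1 for DPYSL4 and 2 overlapping ones for DPYSL5. Each is written 5′ to 3′ along the gene in lower case, and capitals mark the GC box GGGCGG on either strand, where it reads CCGCCC on the other. The first 2 are the starts of DPYSL3 at chr5:147453643-147453942 and chr5:147510019-147510318, both on the minus strand, and the last is the start of DPYSL5 at chr2:26847745-26848044 on the plus strand.
DPYSL3 downstream start: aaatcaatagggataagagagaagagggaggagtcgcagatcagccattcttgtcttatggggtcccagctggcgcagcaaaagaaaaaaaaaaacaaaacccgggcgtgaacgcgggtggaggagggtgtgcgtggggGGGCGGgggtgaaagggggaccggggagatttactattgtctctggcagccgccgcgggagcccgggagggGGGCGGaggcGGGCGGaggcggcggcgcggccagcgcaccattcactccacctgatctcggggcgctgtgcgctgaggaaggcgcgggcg
DPYSL3 upstream start: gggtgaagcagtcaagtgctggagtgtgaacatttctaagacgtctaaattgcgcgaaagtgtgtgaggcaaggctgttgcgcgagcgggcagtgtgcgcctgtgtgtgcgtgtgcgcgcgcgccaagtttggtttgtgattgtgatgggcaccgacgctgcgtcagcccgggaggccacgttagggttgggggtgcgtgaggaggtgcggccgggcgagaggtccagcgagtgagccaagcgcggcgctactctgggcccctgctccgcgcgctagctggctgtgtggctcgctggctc
DPYSL5 upstream start: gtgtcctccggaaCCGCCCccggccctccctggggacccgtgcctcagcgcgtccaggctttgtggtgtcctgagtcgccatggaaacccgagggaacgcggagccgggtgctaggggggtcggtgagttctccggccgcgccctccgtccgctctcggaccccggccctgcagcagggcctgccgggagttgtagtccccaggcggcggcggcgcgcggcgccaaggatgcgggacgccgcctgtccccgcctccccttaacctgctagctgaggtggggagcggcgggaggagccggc

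The downstream DPYSL3 window held 3 GC boxes and the upstream window 0, and the DPYSL5 window held 1. A GC box was present in 8 of the 9 windows and in 45% of all 35116 promoters of this length, and the motif was chosen after the sequences had been looked at. The windows were rich in G and C: 64.33% in both DPYSL3 windows, 74.33% and 79.33% in those of DPYSL5, 79.33% in that of DPYSL4 and 66.33% to 83.67% in those of CRMP1, against a median of 58.67% over all promoters. Motifs of ER stress were also sought on both strands. The ER stress response element, CCAAT and CCACG spaced 9 bases apart, was found in 0 of the 9 windows and in 0.0769% of all promoters. The unfolded protein response element core TGACGTGG was found in 0 of 9 and in 0.729%, the cAMP response element TGACGTCA, which shares its first 6 letters, in 0 of 9 and in 1.85%, and the C/EBP-ATF site TGATGCAA in 0 of 9 and in 0.866%. The TATA box TATAAA was found in 0 of 9 and in 11.5%. A missing match says only that these letters are not in these windows.

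DPYSL3 was the gene with the widest range of the 8. Its level was 5.83, 5.78 and 5.86 in control cells under DMSO, 5.64, 5.54 and 5.61 in control cells under TM, 7.91, 8.03 and 8.01 in TUSC3 KO cells under DMSO, and 7.07, 7.17 and 7.22 in TUSC3 KO cells under TM. The 4 groups did not overlap: TUSC3 KO under DMSO was highest, then TUSC3 KO under TM, control under DMSO and control under TM. The difference of TUSC3 KO from control was 2.16 on the log2 scale under DMSO (95% interval 2.06 to 2.27), a 4.48-fold higher level that ranked 2 among all genes by the size of an upward difference. Under TM it was 1.56 (95% interval 1.46 to 1.66), or 2.95-fold, at rank 13. These values chose the gene and are not tested. The control means of 5.82 under DMSO and 5.59 under TM lay within or below the array medians over the genes tested, 5.76 to 5.85. The arrays read bulk RNA, in which fewer expressing cells and less RNA per cell cannot be told apart.

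TM lowered DPYSL3 in both kinds of cell. In control cells the difference of TM from DMSO was -0.23 (SE 0.05), a 1.17-fold lower level (adjusted p = 0.00343, limma), and every TM array was below every DMSO array. In TUSC3 KO cells it was -0.83 (SE 0.05, 95% interval -0.93 to -0.73), a 1.78-fold lower level (adjusted p = 1.14e-07, limma), again with no overlap. For each of these comparisons of 3 arrays with 3, the two-sided exact permutation test gave p = 0.1, the smallest it allows. The 2 TM differences differed by -0.60 on the log2 scale, which is the difference between the knockout values that chose the gene and has no test. Under TM the TUSC3 KO level was still above every control array. The TM comparisons use the same arrays as the knockout differences and are not independent of them.

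NEFL, which encodes the light chain, had the opposite order. Its level was 6.88, 6.86 and 7.06 in control cells under DMSO, 6.71, 6.82 and 6.74 in control cells under TM, 5.62, 5.74 and 5.62 in TUSC3 KO cells under DMSO, and 5.82, 5.74 and 5.77 in TUSC3 KO cells under TM. All 6 TUSC3 KO arrays lay below all 6 control arrays, and the 2 TUSC3 KO groups overlapped. The difference of TUSC3 KO from control was -1.27 under DMSO (95% interval -1.40 to -1.15), a 2.42-fold lower level at rank 23 among downward differences, and -0.98 under TM (95% interval -1.11 to -0.86), a 1.98-fold lower level at rank 32. In TUSC3 KO cells the mean was 0.88 above the dim limit under DMSO and 1.00 above it under TM. These means of 5.66 and 5.78 lay below or within the array medians over the genes tested, 5.76 to 5.85. They do not by themselves show expression.

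The TM differences of NEFL were smaller than its knockout differences. The DMSO arrays also entered the choice of NEFL, so its TM comparisons are not independent of that choice. In control cells the TM difference was -0.18 (SE 0.06, adjusted p = 0.0451, limma), with every TM array below every DMSO array. That call was lost when the values were quantile normalized again (adjusted p = 0.0503), with the 2 groups fitted alone (0.0987) and without any of 9 of the 12 arrays in turn (up to 0.168, without the third control DMSO array). Without that array the difference was -0.11, and over all arrays left out in turn it ran from -0.21 to -0.11. In TUSC3 KO cells the difference was 0.12 (95% interval -0.01 to 0.24, adjusted p = 0.184, limma), and the arrays overlapped. The difference between the 2 TM effects was 0.29 on the log2 scale, given without a test for the reason given for DPYSL3.

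**Figure D1:**
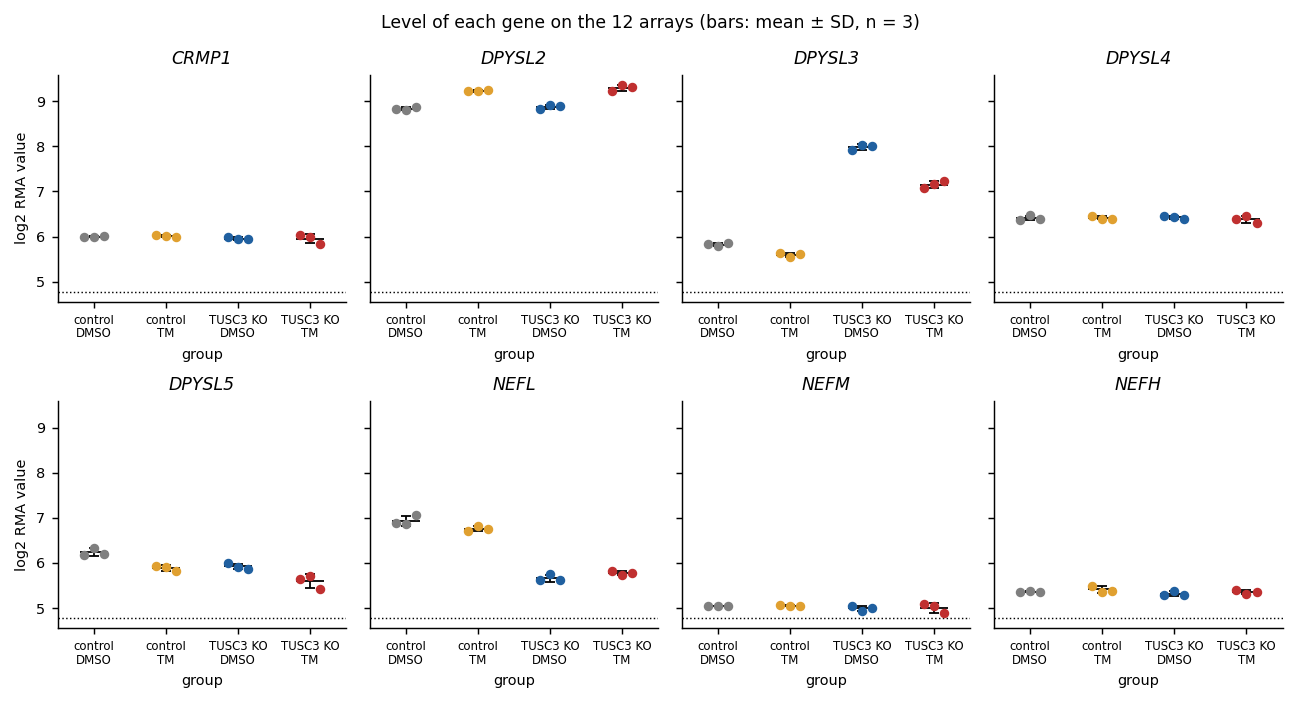
The log2 level of each of the 8 genes (y axis) on the 12 arrays, by group (x axis), with points for arrays and bars for the mean and SD of 3 arrays; the dotted line is the dim limit of 4.78. DPYSL3 is high and NEFL low in both TUSC3 KO groups, DPYSL2 is higher under TM in both kinds of cell, and CRMP1, DPYSL4, NEFM and NEFH have no call.

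NEFM and NEFH, the partners of NEFL in the filament, were not called in any comparison. NEFM lies next to NEFL on chromosome 8, and its mean was 5.04 in control and 4.99 in TUSC3 KO cells under DMSO, a difference of -0.05 (SE 0.05, adjusted p = 0.701, limma). Under TM its difference between TUSC3 KO and control was again -0.05 (adjusted p = 0.611, limma). NEFM was close to the limit of measurement, 0.21 to 0.27 above the dim limit, and the same value of 5.04 stood on 7 of the 12 arrays, a number of repeats that 3.91% of all genes reached. Its lack of a call is read at that level only. The group means of NEFH were 5.36 and 5.41 in control and 5.32 and 5.35 in TUSC3 KO cells, under DMSO and TM in that order. Its differences were -0.05 (adjusted p = 0.699) and -0.06 (adjusted p = 0.426) in the knockout and 0.05 (adjusted p = 0.483) and 0.04 (adjusted p = 0.657) with TM, all by limma.

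DPYSL2 rose with TM in both kinds of cell by nearly the same amount. Its level was 8.82, 8.80 and 8.87 in control cells under DMSO and 9.22, 9.22 and 9.24 under TM. In TUSC3 KO cells it was 8.82, 8.91 and 8.90 under DMSO and 9.23, 9.35 and 9.32 under TM. All TM arrays lay above all DMSO arrays, and within each treatment the 2 kinds of cell overlapped. The TM difference was 0.40 in control cells (SE 0.04, 1.32-fold, adjusted p = 6.18e-06, limma) and 0.42 in TUSC3 KO cells (SE 0.04, 1.34-fold, adjusted p = 3.34e-06, limma). The 2 effects differed by 0.02 (95% interval -0.09 to 0.14, adjusted p = 0.854, limma). TUSC3 KO differed from control by 0.05 under DMSO (adjusted p = 0.556, limma) and by 0.07 under TM (95% interval -0.01 to 0.15, adjusted p = 0.221, limma). So DPYSL2 and DPYSL3 moved in opposite directions under TM.

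DPYSL5 was lower in TUSC3 KO cells and lower under TM. Its level was 6.17, 6.34 and 6.20 in control cells under DMSO, 5.94, 5.92 and 5.82 in control cells under TM, 5.99, 5.91 and 5.87 in TUSC3 KO cells under DMSO, and 5.64, 5.71 and 5.42 in TUSC3 KO cells under TM. Control under DMSO was highest and TUSC3 KO under TM lowest, each apart from the rest, and the other two groups overlapped. The difference of TUSC3 KO from control was -0.31 under DMSO (SE 0.07, adjusted p = 0.0147, limma) and -0.30 under TM (SE 0.07, adjusted p = 0.0135, limma). The TM difference was -0.34 in control cells (SE 0.07, adjusted p = 0.00396, limma) and -0.33 in TUSC3 KO cells (SE 0.07, adjusted p = 0.00433, limma). Each of these 4 comparisons was without overlap, with an exact two-sided permutation p of 0.1. The TM difference was nearly the same in both kinds of cell, with an interaction of 0.01 (95% interval -0.22 to 0.24, adjusted p = 0.975, limma).

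The 2 knockout calls of DPYSL5 rested on few arrays. Under DMSO the call was lost without the second control array (adjusted p = 0.0594), the second TUSC3 KO array (0.0536) or the third TUSC3 KO array (0.0636), with differences of -0.26 to -0.34 over all arrays left out in turn. Under TM it was lost without the first control array (0.056) or the second (0.0507) and with the 2 groups fitted alone (0.0573).

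CRMP1 and DPYSL4 were not called in any comparison. CRMP1 was 5.99, 5.99 and 6.01 in control cells and 5.99, 5.95 and 5.94 in TUSC3 KO cells under DMSO, which do not overlap. The difference was -0.04 (95% interval -0.13 to 0.06, adjusted p = 0.763, limma), and 11.9% of all genes were lower on every TUSC3 KO array in this way. Its other differences were -0.06 in the knockout under TM, 0.02 with TM in control cells and -0.004 with TM in TUSC3 KO cells (adjusted p = 0.437, 0.845 and 0.967, limma). DPYSL4 had group means of 6.41, 6.42, 6.43 and 6.38 in control cells under DMSO and TM and TUSC3 KO cells under DMSO and TM. Its differences were 0.02 and -0.04 in the knockout and 0.01 and -0.05 with TM, with an adjusted p of 0.508 to 0.948 (limma), and in each comparison the arrays overlapped.

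Over all genes tested, limma called 12.7% in TUSC3 KO against control cells under DMSO, 17% in the same comparison under TM, 24.8% with TM in control cells, 27.4% with TM in TUSC3 KO cells and 7.91% in the interaction. Of the 6 genes not picked for their change, 1 was called in the knockout under DMSO and 1 under TM, DPYSL5 both times and downward, where 6.11% and 7.97% of all genes were called lower and 6.58% and 8.99% higher. Of all 8 genes, 1 rose (DPYSL2) and 3 fell (DPYSL3, DPYSL5 and NEFL) with TM in control cells, where 11.2% of all genes rose and 13.6% fell. In TUSC3 KO cells 1 rose (DPYSL2) and 2 fell (DPYSL3 and DPYSL5), against 12.5% and 14.9%. With so few genes these counts do not set the families apart from the rest. DPYSL3 and NEFL were also chosen on arrays that enter the TM counts. In the interaction limma called 0 of the 6 genes, where 4.18% of all genes were called upward and 3.73% downward. An unadjusted p under 0.05 was found for 0 of the 6 and for 4362 of the 22411 genes. Groups without overlap, in either direction, were seen in 26.7% and 28.7% of all genes in the knockout under DMSO and TM and in 38.6% and 36.2% with TM in control and TUSC3 KO cells. The median difference of the genes was -0.04 and -0.05 in the knockout under DMSO and TM and 0.01 in both TM comparisons, against 0.01, -0.02, 0.03 and -0.01 over all genes.

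**Figure D2:**
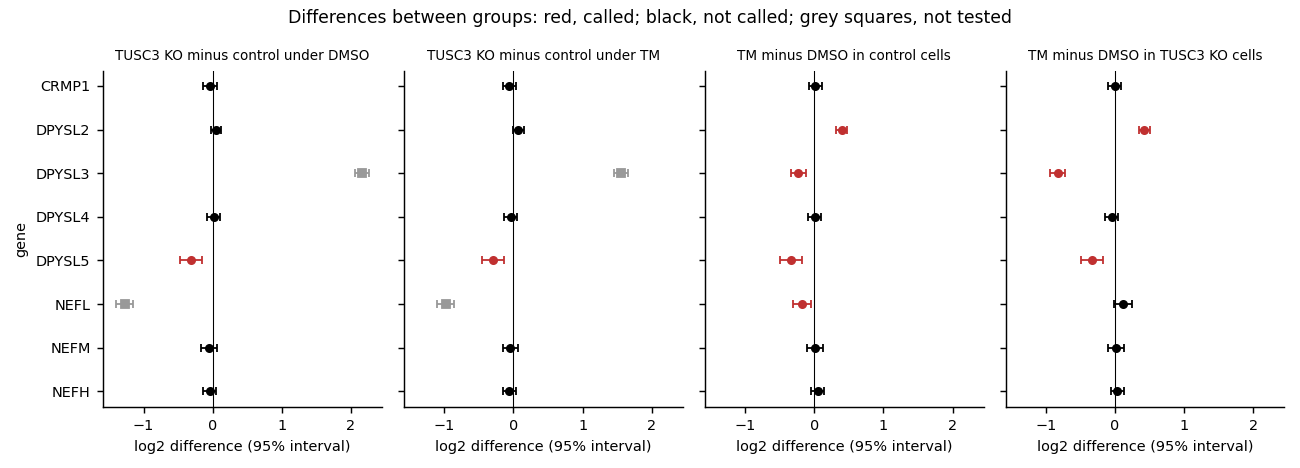
Log2 difference with its 95% interval (x axis) for each of the 8 genes (y axis) in the 4 comparisons; red points were called at an adjusted p under 0.05, black points were not, and grey squares are the knockout differences of DPYSL3 and NEFL, which were not tested. DPYSL3 lies at 2.16 and 1.56 and NEFL at -1.27 and -0.98 in the knockout, while DPYSL2 lies at 0.40 and 0.42 with TM.

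Across the 12 arrays DPYSL3 and NEFL ran against each other (Pearson's r = -0.948), as their choice implies. DPYSL2 and DPYSL5 had r = -0.790, and CRMP1 and NEFM r = 0.935, although the group means of that pair barely differed. The arrays share 4 groups and are not 12 independent points, so these are descriptions.

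The genes whose levels followed DPYSL3 most closely over the 12 arrays, among 574 whose group means spanned at least 1 on the log2 scale, were SYT13 (r = 0.995), a synaptotagmin, the receptor tyrosine kinase EPHA7 (r = 0.991), ITIH5 (r = 0.987), an inter-alpha-trypsin inhibitor heavy chain, and thrombomodulin, THBD (r = 0.981). EPHA7 went from a mean of 4.84 in control to 9.04 in TUSC3 KO cells under DMSO and 4.28 to 8.02 under TM. SYT13 differed by 1.31 under DMSO and 1.01 under TM on the log2 scale. All 4 were lower under TM than under DMSO in both kinds of cell, as DPYSL3 was, which their choice by likeness implies. The genes least like it were ANKRD30A (r = -0.968) and POPDC1 (r = -0.967).

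NEFL was followed most closely by ADAM23 (r = 0.992), by DDX3Y and USP9Y (r = 0.988 each), which lie on the Y chromosome, and by TUSC3 itself (r = 0.988). The mean of DDX3Y fell from 6.56 in control to 4.61 in TUSC3 KO cells under DMSO, and that of USP9Y from 5.90 to 4.22, both then below the dim limit. ADAM23, a cell surface protein of neurons without protease activity, fell from 6.44 to 4.80. The likeness is one of pattern over these arrays only. Least like NEFL were RIGI (r = -0.970), a sensor of viral RNA, and the chemokine CXCL8 (r = -0.969).

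DPYSL2, among 575 such genes, was followed most closely by COPA (r = 0.993), a coat protein of vesicles between Golgi and ER, GTPBP2 (r = 0.991), EDEM1 (r = 0.989), a lectin of ER-associated degradation, and MANF (r = 0.988), a secreted factor of the ER. Their TM differences were 0.91 to 1.10 in control and 0.92 to 1.19 in TUSC3 KO cells, larger than the 0.40 and 0.42 of DPYSL2. DPYSL5 was followed by IGFBP4 (r = 0.962), APLP1 (r = 0.959), ST6GAL2 (r = 0.935) and IGFBP7 (r = 0.930). The 2 binding proteins of insulin-like growth factors fell in the knockout and with TM as DPYSL5 did, which their choice by likeness implies. In the knockout under DMSO they fell by 0.84 and 0.75 on the log2 scale, against 0.31 for DPYSL5.

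**Figure D3:**
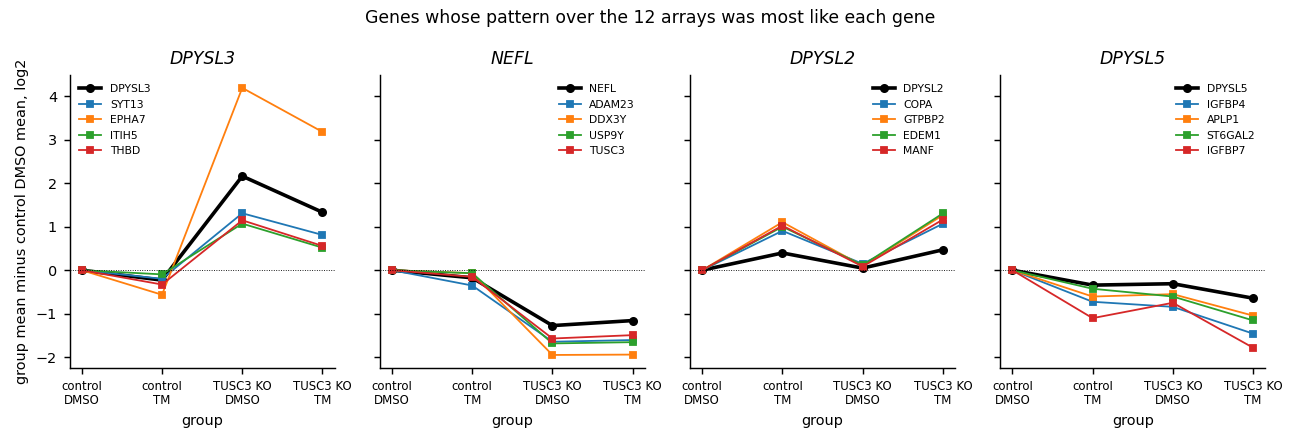
Group means less the control DMSO mean on the log2 scale (y axis) in the 4 groups (x axis) for DPYSL3, NEFL, DPYSL2 and DPYSL5 (black) and the 4 genes most like each over 12 arrays (coloured). EPHA7 follows DPYSL3 with a larger range, and DDX3Y, USP9Y, ADAM23 and TUSC3 follow NEFL.

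The genes on either side on the chromosome were read next, since the TUSC3 KO cells are a clone. NEFL, NEFM, DPYSL2 and TUSC3 all lie on chromosome 8, and DPYSL3 lies on chromosome 5. Of the 20 measured genes around DPYSL3, 10 on each side, 0 were called in TUSC3 KO against control under DMSO, with differences from -0.12 to 0.14 (limma). Only YIPF5, SH3RF2, LARS1 and FBXO38 among them were above the dim limit in any group. For the others, which were dim, a missing call says little. Under TM 2 of the 20 were called higher, STK32A, a kinase gene next to DPYSL3, at 0.89 (adjusted p = 4.46e-07, limma) and YIPF5 at 0.33. STK32A was itself dim in every group, with a highest group mean of 3.93, and its call is read at that level only. Under DMSO STK32A differed by 0.14 (adjusted p = 0.143, limma). Of all genes, 12.7% were called in either direction under DMSO and 17% under TM.

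Around NEFM and NEFL, of 19 neighbours that are not among the 8 genes, 2 were higher, 4 lower and 13 not called under DMSO, with a median difference of 0.01 and a range of -0.47 to 0.27. The 4 lower were BNIP3L (-0.47), a mitophagy receptor, LOXL2 (-0.33), a lysyl oxidase, KCTD9 (-0.21) and PNMA2 (-0.14), and the 2 higher were TNFRSF10A (0.27), a TRAIL receptor, and SLC25A37 (0.20). NEFL was chosen for its difference of -1.27, so that these were smaller follows from the choice. Around DPYSL2, whose neighbours are in part the same, 0 were higher, 6 lower and 12 not called, with CLU (-0.29) and SCARA3 (-0.42) among the 6. Under TM the counts were 4 higher and 3 lower around NEFM and NEFL, with a range of -0.47 to 0.55, and 3 higher and 3 lower around DPYSL2. Around TUSC3, 2 were higher, 2 lower and 16 not called under DMSO. The amino acid carrier SLC7A2 (0.60) and PDGFRL (-0.39) were farthest from 0 there. Under TM 3 were higher and 1 lower around TUSC3, with SLC7A2 at 0.75 and PDGFRL, not called, at 0.04.

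**Figure D4:**
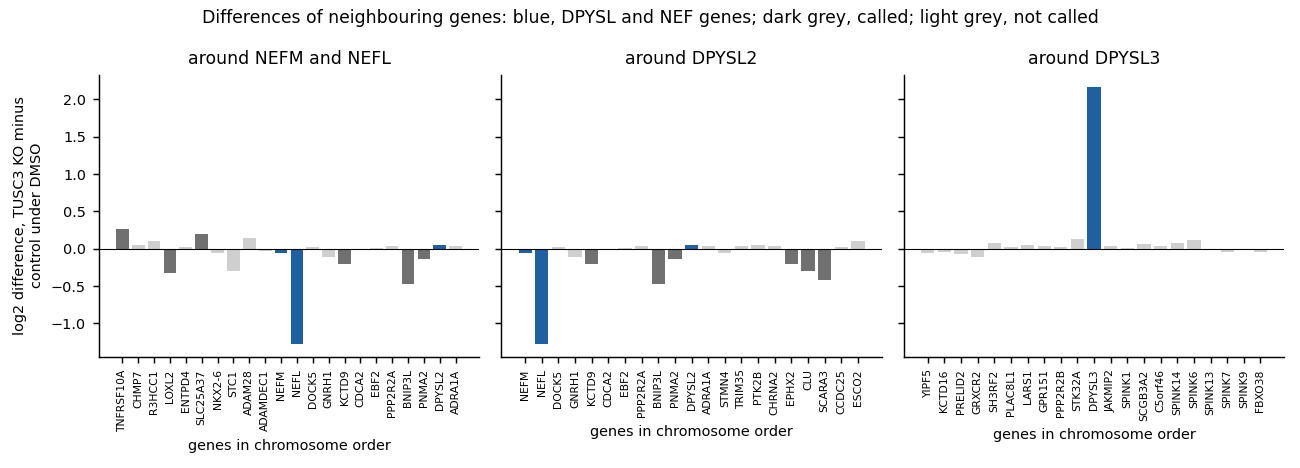
Log2 difference of TUSC3 KO from control under DMSO (y axis) for measured genes in chromosome order (x axis) around NEFM and NEFL, DPYSL2 and DPYSL3; blue bars are the DPYSL and NEF genes, dark grey bars other genes called, light grey bars genes not called. The bars of DPYSL3 (2.16) and NEFL (-1.27) are the longest, as their choice implies, and the other bars lie between -0.47 and 0.27.

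The genes that act with CRMPs were then read, from lists written from general knowledge. No list was tested as a set. For comparison with the counts of every list, 6.58% of all genes were higher and 6.11% lower in the knockout under DMSO. Under TM these shares were 8.99% and 7.97%. With TM, 11.2% of all genes rose and 13.6% fell in control cells, and 12.5% rose and 14.9% fell in TUSC3 KO cells. Of 17 genes of semaphorin 3A signalling, 2 were up and 2 down in the knockout under DMSO and 5 up and 3 down under TM, with medians of -0.01 and 0.06. SEMA3A, the ligand, fell with TM in control cells by 0.87 on the log2 scale (SE 0.05, adjusted p = 2.8e-07, limma), and its TM difference in TUSC3 KO cells was -0.06 (adjusted p = 0.53). The 2 responses differed by 0.81 (adjusted p = 0.00011, limma). The receptor part PLXNA2 was higher in the knockout by 0.31 under DMSO and 0.60 under TM (adjusted p = 6.8e-05 and 2.5e-07, limma). The co-receptors NRP1 and NRP2 rose with TM, NRP2 by 0.63 without and 0.48 with the knockout, NRP1 by 0.21 and 0.39 in the same order. With TM, 4 of the 17 rose and 6 fell in control cells, and 6 rose and 2 fell in TUSC3 KO cells. DPYS, the dihydropyrimidinase that CRMPs resemble, was dim in every group, as was UPB1, another enzyme of uracil breakdown. DPYD, which starts uracil breakdown, was higher in the knockout by 0.46 under DMSO (adjusted p = 0.00029, limma) and by 0.23 under TM (adjusted p = 0.02, limma).

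Of 16 kinases and phosphatases of CRMPs, 14 were not called in the knockout under DMSO and 14 not under TM. GSK3A was 0.16 higher and ROCK2 0.20 on the log2 scale lower under DMSO (adjusted p = 0.0418 and 0.0413, limma), and CAMK2D was 0.31 higher under TM (adjusted p = 0.000385, limma). GSK3B differed by 0.10 and 0.07 (adjusted p = 0.087 and 0.21). CDK5 fell with TM by 0.22 in control and 0.36 in TUSC3 KO cells (adjusted p = 0.00097 and 2e-05, limma). With TM 0 of the 16 rose and 4 fell in control cells, and 2 rose and 3 fell in TUSC3 KO cells. Of 13 binding partners, tubulins among them, 2 were higher and 0 lower in the knockout under DMSO and 0 higher and 6 lower under TM, with medians of 0.01 and -0.15. Of all genes 7.97% were lower under TM, with a median of -0.02. TUBA1A was 0.26 and TUBA1B 0.23 lower on the log2 scale under TM. Of the 5 tubulins measured, TUBA1A, TUBA1B, TUBB and TUBB2A fell with TM in both kinds of cell, and TUBB2B differed by 0.12 and 0.01 (adjusted p = 0.133 and 0.957, limma). TUBA1B fell by 0.19 in control and by 0.52 in TUSC3 KO cells, a difference of -0.34 between the 2 responses (adjusted p = 0.00036, limma).

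The other intermediate filament genes moved in both directions. Of 23 measured, 5 were higher and 1 lower in the knockout under DMSO and 5 higher and 3 lower under TM, with a median of 0.03 each time. INA, which can join neurofilaments, was 8.29 in control and 8.67 in TUSC3 KO cells under DMSO, a difference of 0.37 (adjusted p = 0.00017, limma), upward where NEFL was downward. Under TM the difference of INA was 0.10 (adjusted p = 0.178, limma), while NEFL was still lower. INA rose with TM by 0.82 in control and 0.55 in TUSC3 KO cells (adjusted p = 9.1e-08 and 2.5e-06, limma). PRPH differed by -0.03 and -0.07 in the knockout (adjusted p = 0.92 and 0.62). KRT19, a keratin of simple epithelium, was higher in the knockout by 0.36 under DMSO and 0.60 under TM, and vimentin (VIM) was lower by 0.15 and 0.21 on the log2 scale. With TM, 4 rose and 7 fell in control cells and 6 rose and 7 fell in TUSC3 KO cells. The lamin LMNB1 fell by 0.80 and 1.13 on the log2 scale.

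Of 13 genes of neurofilament transport and turnover, 4 were higher and 1 lower in the knockout under DMSO and 5 higher and 2 lower under TM, with medians of 0.14 and 0.07. With TM, 7 rose and 2 fell in each kind of cell, with medians of 0.21 and 0.24. Of all genes 11.2% rose in control and 12.5% in TUSC3 KO cells, with medians of 0.03 and -0.01. TRIM2, a ubiquitin ligase of NEFL, rose with TM by 0.49 without and 0.61 with the knockout, and under TM it was higher by 0.30 in the knockout (adjusted p = 4.2e-05, 6.3e-06 and 0.003, limma). CALR, the largest riser at 1.07 and 1.01, is a lectin chaperone of the ER and not a neurofilament protein by its main role. HSPB1, a small heat shock protein that binds intermediate filaments, fell with TM by 0.66 and 0.75 and was lower by 0.22 and 0.31 on the log2 scale in the knockout.

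Axonal microtubule proteins had 2 higher and 2 lower of 13 in the knockout under DMSO and 2 higher and 3 lower under TM, with medians of -0.02 and -0.05. MAP1B, a microtubule protein of growing axons, was lower by 0.37 and 0.41 on the log2 scale (adjusted p = 9.4e-06 and 2.5e-06, limma) and rose with TM by 0.79 and 0.74. MAP2 moved alike, lower by 0.28 and 0.29 on the log2 scale in the knockout and up by 0.38 and 0.37 with TM. MARCKS was higher by 0.20 and 0.70, and fell with TM in control cells by 0.53. With TM, 3 rose and 2 fell in control cells and 3 rose and 3 fell in TUSC3 KO cells.

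Markers of neurons and neuroendocrine cells were read beside NEFL. Of 21, 1 was higher and 3 lower in the knockout under DMSO and 2 higher and 2 lower under TM, with medians of -0.02 and -0.04, and their mean log2 level per array was 5.44 to 5.60 over the 4 groups. SNAP25 was lower by 0.48, MAP2 by 0.28 and UCHL1 by 0.19 on the log2 scale under DMSO, and INA was the 1 that was higher. Under TM, SYT1 and RBFOX3 were higher by 0.46 and 0.48, and MAP2 and UCHL1 were lower by 0.29 and 0.12 on the log2 scale. SYT1 differed by -0.28 under DMSO (adjusted p = 0.0509, limma), and SNAP25 by -0.04 under TM (adjusted p = 0.773, limma). With TM, 4 rose and 3 fell in control cells and 5 rose and 2 fell in TUSC3 KO cells. REST, the repressor of neuronal genes, lay at 7.27 in both kinds of cell under DMSO (adjusted p = 0.98, limma) and differed by 0.09 under TM (adjusted p = 0.17, limma). Of 11 genes of REST and its corepressors, 1 was higher and 0 lower in the knockout under DMSO, RCOR1 at 0.14, and 2 were higher and 4 lower under TM, with medians of -0.005 and -0.04. With TM, 1 rose and 3 fell in control cells and 1 rose and 6 fell in TUSC3 KO cells. Their part in the levels of NEFL and DPYSL3 was not tested.

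**Figure D5:**
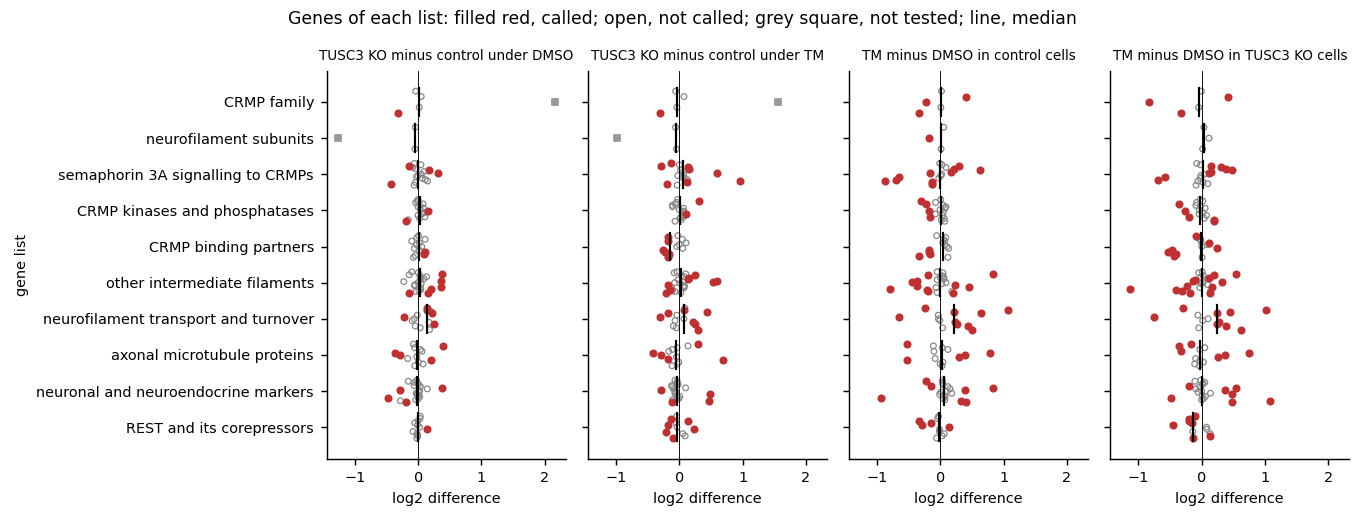
Log2 difference (x axis) of every gene measured in 10 gene lists (rows) in the 4 comparisons; filled red points were called at an adjusted p under 0.05, open points were not, grey squares are DPYSL3 and NEFL where they were not tested, and the vertical line is the median of the list. Medians of the lists lie between -0.15 and 0.24, where those of all genes lie between -0.02 and 0.03, and single genes reach beyond 0.8 on either side.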

How the data were processed

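RNA of 12 arrays was analysed. The authors deposited log2 values computed by RMA (background correction, quantile normalization and a summary for each transcript cluster). For RMA's version and for the annotation build, the sources used here name none. Of 70523 features, 23781 had 1 gene symbol, 1543 several and 45199 none. Symbols were updated for 306 features, and the brightest feature stood for each of the 22411 genes. Values spanned 0.721 to 13.9, and arrays of a group correlated at 0.996 to 0.999. The number of arrays limits the precision.

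Groups, taken from the labels, entered 1 limma fit of all 12 arrays with a variance trend (limma 3.58.1, R 4.3.3). Adjustment was Benjamini-Hochberg over all genes, and calls needed an adjusted p under 0.05. Comparisons share groups. The fit was tested on simulated data. Named are the 8 genes, 4 most like and 2 least like DPYSL3, NEFL, DPYSL2 and DPYSL5 by Pearson's r, called genes among 10 neighbours on each side, and examples from the lists, picked after their values were seen. The genes and lists were chosen with earlier results of these data known. Alternatives were 2 other normalizations, no variance trend, the compared groups alone, a replicate block, the mean of features, dim genes left out, the methods' t-test and each array left out. The identity of the proteins was not analysed here. Tables and figures were made in Python 3.11.15 with numpy 2.4.6, pandas 2.3.3 and matplotlib 3.10.9.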

Additional observations from a re-analysis of the deposited data

How the results depend on the processing

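The TM calls of DPYSL2 and DPYSL3, and that of DPYSL5 in control cells, held under every alternative run. The knockout differences of DPYSL3 and NEFL kept their direction under all of them. These differences chose the genes on the same arrays, so this is no separate support. Whether the replicate number pairs the arrays was not tested. Of 18 same-numbered pairs, 9 had a correlation of their deviations above 0.1 (range -0.10 to 0.39). Different-numbered pairs ran from -0.48 to 0.32, and 7 of 12 arrays lay closest to their own number. With the replicate number as a block, more genes were called in every comparison. In the knockout the counts were 3286 against 2844 under DMSO and 4437 against 3801 under TM. With TM they were 6155 against 5564 in control and 6684 against 6144 in TUSC3 KO cells. In the interaction they were 2257 against 1773. Among the 8 genes only the NEFL call with TM in control cells was lost (adjusted p = 0.0577, limma).

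Small differences changed sign, none of them called. Quantile normalization again gave -0.00814 for NEFM with TM in control cells, 0.0139 for CRMP1 with TM in TUSC3 KO cells and -0.00593 for DPYSL2 in the interaction. With array medians subtracted, CRMP1, DPYSL4 and NEFM with TM in control cells were -0.00711, -0.0172 and -0.0130, NEFH in the interaction was 0.000908, and 1177 genes were called in the interaction in place of 1773. With the compared groups alone, 0 of the 6 genes were called in the knockout under TM. The methods' t-test gave 4404 genes in the knockout under DMSO at its unadjusted threshold. After Benjamini-Hochberg it gave 1423 genes and 0 of the 6 under DMSO, 1551 genes and 0 of the 6 under TM, and 3728 genes with TM in TUSC3 KO cells, where the DPYSL5 call was lost (adjusted p = 0.104). The cause was not tested.

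With each array left out in turn, the number of the 6 genes called in the knockout was 0 to 1 under DMSO and 0 to 1 under TM, which is the DPYSL5 call. DPYSL4 ran from -0.00267 to 0.0451 in the knockout under DMSO, from -0.0715 to 0.00463 under TM and from -0.0165 to 0.0343 with TM in control cells. NEFM ran from -0.0877 to 0.0140 in the knockout under TM, from 0 to 0.0148 with TM in control cells and from -0.0265 to 0.0752 with TM in TUSC3 KO cells, where CRMP1 ran from -0.0401 to 0.0502. The interaction ran from -0.0558 to 0.0344 for CRMP1, -0.00329 to 0.0598 for DPYSL2, -0.0509 to 0.0945 for DPYSL5, -0.0363 to 0.0654 for NEFM and -0.0429 to 0.0284 for NEFH. NEFM and NEFH lay near the dim limit, where signal over background sets what can be seen.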
